A study of Mus musculus with 40 samples.

Results

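The genes described here were those whose transcripts dropped within 24 hr of switching off Pou5f1 in mouse embryonic stem (ES) cells and then stayed down through 120 hr. They were chosen by their values in the late time series (3 arrays per time, from 0 hr in daily steps to 120 hr). A gene probe was taken when its mean at 24 hr was at least 1.5-fold below the 0 hr mean (0.176 on the log10 scale) and when its mean on each later day was at least 2-fold below it (0.301). This rule kept 165 of 16292 gene probes in the late table (1.01%), 1 probe per gene. The late values therefore describe these genes, and no test was made on them.

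The cells of both time series were ZHBTc4, a line derived from a male 129/Ola mouse in which Pou5f1 comes only from a transgene that tetracycline shuts off. They grew on gelatin with leukemia inhibitory factor (LIF), and the 0 hr cells had no tetracycline. The early series held 2 arrays per time, with 0 hr and then 3, 6, 12 or 24 hr of tetracycline. Another set of 12 arrays held 4 ES lines after 3 days in each of 3 media, which were complete medium with LIF, medium without LIF (LIF-), and medium with LIF plus 1 uM all-trans retinoic acid (RA). The lines were MG1.19, a clone of it carrying Nanog on an episome, ES 129.3, and the clone Nanog/EF1#6 with integrated Nanog, each with 1 array per medium, so that 2 of the 4 lines over-expressed Nanog in every medium. In each case the cell RNA carried Cy3 and a universal mouse reference RNA carried Cy5, with no dye swap. Sources do not say whether replicate arrays of the time series came from separate cultures, so their p-values measure the spread between these arrays. Of the 165 probes, 163 stood with an identical sequence on the early and medium arrays, and the probes for Atoh1 and Fetub did not.

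Pou5f1 (Oct4) is a POU-domain transcription factor that binds an octamer sequence in DNA, often beside Sox2, and it keeps ES cells and the inner cell mass from turning into trophectoderm, the outer layer of the blastocyst that forms the placenta. LIF acts through its receptor and Stat3 to support self-renewal of mouse ES cells, while retinoic acid acts through nuclear receptors and drives them to differentiate. Genes that respond to a shortage of amino acids share a different control, in which Atf4 and its partners bind a short element with the core TGATGNAA in promoters of enzymes and transporters that supply amino acids.

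Promoter sequences were available from RefSeq (mouse build GRCm38.p6, 250 bases before to 50 after each annotated start) for 123 of the 165 genes. The windows below are the Zfp296 window, shown because Zfp296 was among the 3 earliest genes to pass the early test, and those of the 6 genes of amino acid supply whose window held TGATGNAA, shown because the values of that group lay far apart in the 2 time series. Capitals mark the octamer ATGCAAAT (in Zfp296, where it reads in reverse) or TGATGNAA in the others, on either strand.
Zfp296 promoter, chr7:19577037-19577336, plus strand: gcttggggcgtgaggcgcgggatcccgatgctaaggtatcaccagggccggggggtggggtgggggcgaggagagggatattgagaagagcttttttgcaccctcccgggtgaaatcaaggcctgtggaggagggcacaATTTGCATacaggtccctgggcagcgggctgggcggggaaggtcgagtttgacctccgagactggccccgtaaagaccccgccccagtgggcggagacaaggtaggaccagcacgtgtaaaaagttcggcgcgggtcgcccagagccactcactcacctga
Asns promoter, chr6:7693160-7693459, minus strand: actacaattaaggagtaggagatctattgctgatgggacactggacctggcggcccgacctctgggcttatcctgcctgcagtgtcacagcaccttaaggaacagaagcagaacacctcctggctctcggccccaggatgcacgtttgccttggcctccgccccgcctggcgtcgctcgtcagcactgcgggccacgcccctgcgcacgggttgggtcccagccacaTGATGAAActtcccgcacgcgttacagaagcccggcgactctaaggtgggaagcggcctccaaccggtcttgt
Gars promoter, chr6:55037751-55038050, plus strand: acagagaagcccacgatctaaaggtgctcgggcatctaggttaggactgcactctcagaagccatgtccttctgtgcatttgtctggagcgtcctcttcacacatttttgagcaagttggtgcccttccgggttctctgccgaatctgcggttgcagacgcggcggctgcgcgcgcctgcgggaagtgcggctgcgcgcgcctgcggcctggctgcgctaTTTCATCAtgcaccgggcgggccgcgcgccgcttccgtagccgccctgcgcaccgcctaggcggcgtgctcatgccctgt
Jdp2 promoter, chr12:85599166-85599465, plus strand: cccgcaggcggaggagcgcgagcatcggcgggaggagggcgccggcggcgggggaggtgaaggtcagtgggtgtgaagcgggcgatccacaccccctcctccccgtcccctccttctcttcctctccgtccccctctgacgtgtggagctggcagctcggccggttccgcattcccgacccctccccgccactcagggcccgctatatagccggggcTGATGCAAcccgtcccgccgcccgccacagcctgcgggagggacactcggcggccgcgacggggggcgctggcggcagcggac
Nupr1 promoter, chr7:126625421-126625720, minus strand: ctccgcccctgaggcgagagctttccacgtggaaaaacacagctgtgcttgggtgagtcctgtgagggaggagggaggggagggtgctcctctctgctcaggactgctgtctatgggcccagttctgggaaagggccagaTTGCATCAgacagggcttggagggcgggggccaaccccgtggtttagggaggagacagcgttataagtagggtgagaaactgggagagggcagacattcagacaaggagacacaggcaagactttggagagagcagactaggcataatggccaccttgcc
Pck2 promoter, chr14:55540016-55540315, plus strand: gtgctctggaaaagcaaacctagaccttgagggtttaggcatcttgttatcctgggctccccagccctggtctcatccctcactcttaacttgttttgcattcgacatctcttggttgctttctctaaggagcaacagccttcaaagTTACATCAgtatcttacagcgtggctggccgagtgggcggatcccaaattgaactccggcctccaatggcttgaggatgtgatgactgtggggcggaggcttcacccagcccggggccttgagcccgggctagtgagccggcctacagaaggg
Trib3 promoter, chr2:152344011-152344310, minus strand: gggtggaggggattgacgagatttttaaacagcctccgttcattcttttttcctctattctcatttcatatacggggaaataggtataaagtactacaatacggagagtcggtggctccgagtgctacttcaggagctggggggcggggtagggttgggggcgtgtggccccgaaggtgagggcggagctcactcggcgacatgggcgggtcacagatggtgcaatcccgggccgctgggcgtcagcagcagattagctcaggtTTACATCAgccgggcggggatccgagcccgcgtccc

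Both motifs were chosen after the genes were known, and a match is a description of letters only. The octamer stood in the window of 4 of 123 genes (Zfp296, Spp1, Gadd45a and Atf7ip, 3.25%), against 1.97% of 27025 genes with a RefSeq window. TGATGNAA stood in 12 of the 123 (9.76%) against 4.51% of all genes. Of those 12, Asns, Gars, Jdp2, Nupr1, Pck2 and Trib3 belonged to the group of amino acid supply, where 6 of 15 windows held it (40%), and 6 of the other 108 genes did (5.56%). None of the 9 ES cell transcription factors with a window held it, which says only that these letters are not in those windows.

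On the late arrays the 165 genes fell by 0.59 to 4.04 at 24 hr in log2 units (median -1.15), and by 120 hr the changes ran from -5.20 to -1.02 with a median of -1.79. The median over these genes of the pooled replicate SD was 0.15. For 162 of them every array at all 5 later times lay below every 0 hr array. The rule chose the genes on these same arrays, so such separation is favoured, and its share over all late probes is not given here. At the median 64.4% of the 120 hr difference was present at 24 hr. In 58 genes it was 75% or more and in 25 genes under 40%, so the set holds abrupt and gradual courses. Between 48 and 120 hr the mean went lower still in 124 genes and higher in 41. A total of 61 genes were over 4-fold lower at 120 hr and 25 over 8-fold lower.

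**Figure D1:**
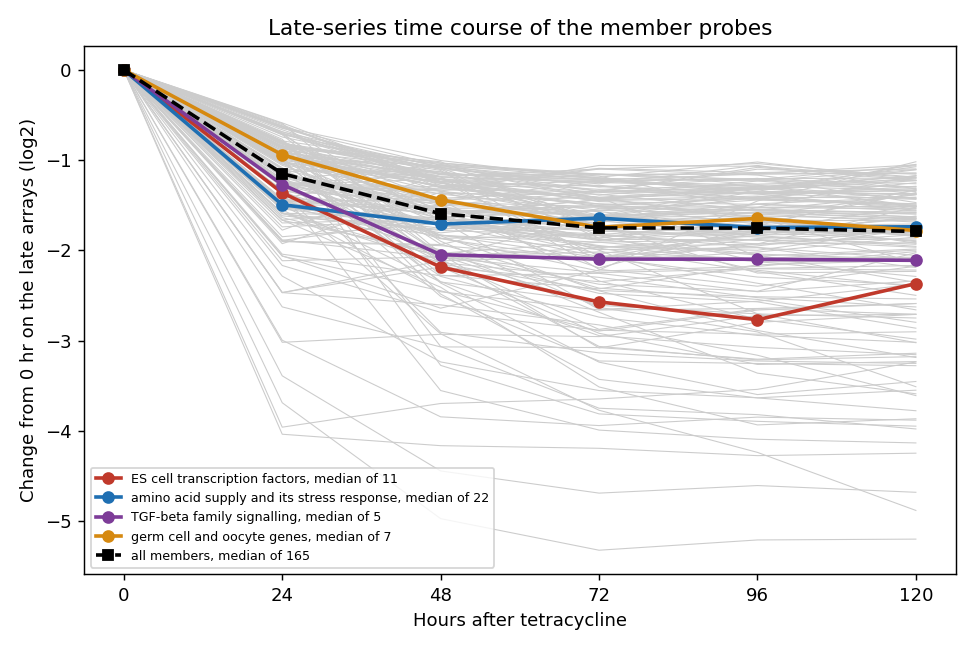
Late-series course of the 165 genes (grey, mean of 3 arrays per time, vertical axis, log2 change from 0 hr) against hours of tetracycline, with medians of 4 role groups in colour and of all genes as a dashed black line. The black line is at -1.15 at 24 hr and -1.79 at 120 hr, and the ES cell transcription factors end at -2.37.

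The suppressed gene came first in the check of the labels. Its member probe read 10.27, 10.80 and 10.51 (log2 level) on the late arrays at the start and 8.48, 8.18 and 8.58 after 24 hr, and it was 2.00 lower on the log2 scale after 120 hr. The 24 hr arrays were all below the 0 hr arrays, and the level was then flat. On the early arrays the same probe read 2.72 and 1.31 (log2 ratio to the reference) at the start, 0.16 and 0.43 after 3 hr, -0.35 and -0.08 after 6 hr, -0.29 and -0.33 after 12 hr and -0.42 and -0.34 after 24 hr. The 0 hr arrays disagreed by more than 2-fold, but both lay above every later array. Pou5f1 was lower at 12 hr (-2.32, adjusted p 0.00582) and at 24 hr (-2.39, SE 0.31, adjusted p 0.000756, limma with Benjamini-Hochberg adjustment), whereas its differences at 3 hr (-1.72, adjusted p 0.205) and 6 hr (-2.23, adjusted p 0.0728) did not pass. A different Pou5f1 probe on the early arrays read 3.97 and 3.97 at the start and 3.46 and 3.38 after 24 hr, a difference of -0.55 (SE 0.14, adjusted p 0.05) that was under 1.5-fold.

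The 3 genes with the most negative mean change from 48 to 120 hr were of mixed kind. Jam2, a tight-junction adhesion molecule, read 12.47, 12.54 and 13.95 at the start, 9.31, 9.43 and 9.14 after 24 hr and 7.89, 7.84 and 7.62 after 120 hr (log2 level). Tcl1, a co-activator of the kinase Akt in ES cells and oocytes, read 13.39, 13.40 and 13.20, then 9.72, 10.14 and 9.97, then 8.71, 8.64 and 8.60 at the same times. Slc7a3, a transporter of cationic amino acids, read 14.13, 13.97 and 15.12, then 10.41, 10.40 and 10.31, then 10.16, 10.17 and 10.15. No array at 24 or 120 hr overlapped the 0 hr arrays for these 3 genes, and the 0 hr array of replicate 3 was the highest for Jam2 and Slc7a3. Jam2 was 12.9-fold lower at 24 hr and 36.8-fold lower at 120 hr, and Slc7a3 16.4-fold and 19.0-fold, so that Slc7a3 had 95.1% of its late difference by 24 hr.

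Other strongly reduced genes took longer. Stmn2, a microtubule-destabilizing protein best known from neurons, read 14.72, 14.87 and 14.66 at the start, 13.32, 13.37 and 13.44 after 24 hr, 11.81, 11.85 and 11.81 after 48 hr and 10.03, 9.82 and 9.75 after 120 hr. Ooep, a maternal-effect gene of the oocyte, read 11.61, 11.41 and 11.93 at the start, 10.65, 11.05 and 10.78 after 24 hr and 8.30, 8.36 and 8.46 after 48 hr. Both went down stepwise with no overlap between these times, and only 28.2% (Stmn2) and 20.9% (Ooep) of the 120 hr difference was present at 24 hr. The germ-cell chromatin protein Morc1 was alike, with 19.9%. Manba, a lysosomal mannosidase, was at the other end, since it was 4.17-fold lower at 24 hr but only 2.03-fold lower at 120 hr.

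Signal at the bottom of the scale set a limit. At 0 hr 164 of the 165 probes lay above the 95th percentile of the negative-control spots on 3 of 3 arrays, Atoh1 being the exception, but at 120 hr 22 of them were above it on none. For the 21 genes that were above it at 0 hr and not at 120 hr, Jam2 among them, the size of the late difference is bounded by this floor.

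Values close to the thresholds show how the set ends. Just inside the 24 hr threshold were Clstn1 (-0.59), Gadd45a (-0.59) and Zbtb8a (-0.61), and just outside were Ildr1 (-0.57), Tcea3 (-0.55) and Notch4 (-0.55), all as log2 change at 24 hr. For the weakest of the later 4 times, Xpot (-1.004), Arrdc4 (-1.02) and Manba (-1.02) were inside and B230311B06Rik (-0.99), Ifitm2 (-0.97) and BC022642.1 (-0.95) outside. By Pearson correlation over the 6 time means, the genes most like the median course were Spata31d1a (0.9993), Nr0b1 (0.9993), Vps16 (0.9989), Pitpnc1 (0.9988) and Dusp27 (0.9982), of which Vps16 is not in the set. Among single arrays left out, those at 0 hr moved the size of the set most. Leaving out replicate 3 gave 131 genes in place of 165, against 176 without replicate 1 and 183 without replicate 2.

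In bulk RNA, fewer cells of a type and less RNA per cell cannot be told apart. The mean log2 level of 9 trophoblast marker genes was 9.99 to 10.09 on the late arrays at 0 hr, 11.18 to 11.31 at 24 hr and 13.68 to 13.77 at 120 hr. Fibroblast feeder markers (5 genes) read 10.26 to 10.42 at the start and 9.77 to 9.84 after 24 hr, and 2 of these 5 were above the negative controls at the start. The part of either cell type in the values of the 165 genes was not tested.

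The early series asked how soon these genes respond, on arrays that the rule did not use. A call needed an adjusted p of at most 0.05 over all probes and a 1.5-fold difference from 0 hr. No member was called lower at 3 hr, where 0.00952% of all 42001 probes were (limma). At 6 hr 3 of 163 were lower and none higher (background 0.00238%), namely the transcriptional repressor Foxd3, the zinc-finger protein Zfp296 and the 5-methylcytosine oxidase Tet2, against a background of 0.00952%. At 12 hr 28 were lower (17.2%, background 0.3%) and 1, the adhesion receptor Adgrd1, was higher (0.613%, background 0.19%). At 24 hr 80 were lower (49.1%, background 1.34%) and none higher (background 1.23%). The median change of the members was 0.01 after 3 hr, -0.01 after 6 hr, -0.17 after 12 hr and -0.60 after 24 hr, while the median over all probes after 24 hr was -0.01. All these comparisons share the same 2 arrays at 0 hr, and the 12 hr count was 16 or 15 when one or the other of those was left out. Trophoblast markers also moved on these arrays, the mean log2 ratio of 11 genes being 0.43 to 0.49 at the start, 0.72 to 0.75 after 12 hr and 0.83 to 0.88 after 24 hr, with 2 of 11 called higher after 24 hr. For 7 ES cell markers it was 3.40 to 3.53 at the start and 3.13 to 3.14 after 24 hr, with 1 of 7 called lower, and their part in the members' changes was not tested.

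At 24 hr both arrays lay below both 0 hr arrays in 116 members, against 19.6% of all probes. By linear interpolation between times, 4 members first passed 1.5-fold within 3 hr, 4 between 3 and 6 hr, 25 between 6 and 12 hr and 55 between 12 and 24 hr, whereas 75 had not by 24 hr. Over all early probes the shares first passing in these windows were 0.276%, 0.129%, 0.35% and 1.1%, against 2.45%, 2.45%, 15.3% and 33.7% of the members. The error model of the study's methods takes the larger of a probe's own variance and that of probes of like intensity. It called none of all the probes at any early time, so its 0 members lower say nothing particular to them.

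Foxd3, Zfp296 and Tet2 were the first members to pass the call, although by fold alone 4 members had passed 1.5-fold within 3 hr. Foxd3 read 2.29 and 2.32 at the start, 1.65 and 1.75 after 3 hr, 0.91 and 1.18 after 6 hr, 0.62 and 0.50 after 12 hr and 0.48 and 0.38 after 24 hr (log2 ratio). Zfp296 read 2.75 and 2.82, 2.55 and 2.79, 1.82 and 1.99, 1.15 and 1.17, and 0.79 and 0.59 at these times, and Tet2 read 1.83 and 1.86, 1.66 and 1.70, 1.10 and 1.05, 0.59 and 0.53, and 0.25 and 0.24. For all 3 the 6, 12 and 24 hr arrays were below the 0 hr arrays without overlap and most of the difference was in place by 12 hr. At 6 hr the changes were -1.25 (SE 0.11, adjusted p 0.00376) for Foxd3, -0.88 (SE 0.11, adjusted p 0.0417) for Zfp296 and -0.77 (SE 0.08, adjusted p 0.0166) for Tet2 (limma). The count of 3 at this time moved to between 0 and 6 with the processing.

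By 12 hr a wider group had followed, with Slc7a3 (-2.01, adjusted p 2.58e-05), the lymphatic growth factor Vegfc (-1.75, adjusted p 6.73e-05), the actin nucleator Cobl (-1.63, adjusted p 0.000156), Nr0b1 (-1.43, adjusted p 3.68e-05), Jam2 (-1.39, adjusted p 0.000209) and Hmces, a protein that shields abasic sites in DNA (-1.28, adjusted p 4.87e-05). Nr0b1 (Dax1), an orphan nuclear receptor of ES cells, read 3.95 and 4.00 at the start, 4.01 and 3.93 after 3 hr, 3.37 and 3.54 after 6 hr, 2.53 and 2.57 after 12 hr and 1.79 and 1.69 after 24 hr. It was level for 3 hr and then went down at each time without overlap.

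Other genes waited until after 12 hr. Tcl1 read 3.43 and 4.09 at the start, 3.42 and 3.18 after 12 hr and 0.74 and 0.91 after 24 hr, and its change after 24 hr was -2.94 (SE 0.18, adjusted p 2.93e-06) after -0.46 after 12 hr (adjusted p 0.551). Lrrc2, a leucine-rich repeat protein, read 3.58 and 3.59, then 3.38 and 3.00, then 1.16 and 1.14 at the same times. Lefty1, a secreted inhibitor of Nodal, read 2.84 and 2.89 at the start, 3.50 and 3.32 after 6 hr, 2.84 and 2.70 after 12 hr and 0.85 and 1.30 after 24 hr. In these 3 genes the 24 hr arrays stood far below all earlier ones. The changes at 24 hr were -2.43 (SE 0.13, adjusted p 9.23e-07) for Lrrc2 and -1.79 (SE 0.14, adjusted p 1.83e-05) for Lefty1, whose close copy Lefty2 may share its probe. The higher Lefty1 values at 6 hr did not pass (0.55, adjusted p 0.398).

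**Figure D2:**
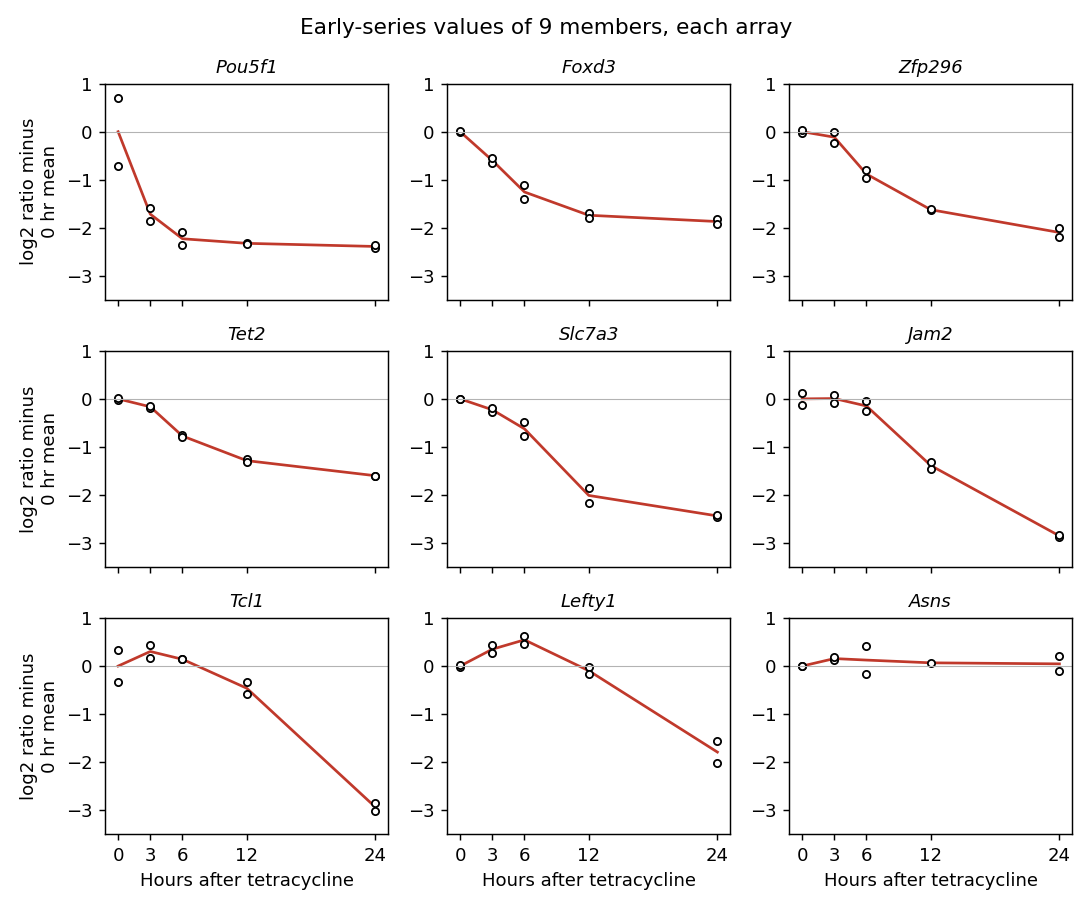
Early-series values of 9 members, each circle 1 array (vertical axis, log2 ratio minus the 0 hr mean) against hours of tetracycline, with red lines through the means. Foxd3, Zfp296 and Tet2 are down at 6 hr, Tcl1 is at -0.46 at 12 hr and -2.94 at 24 hr, and Asns stays near 0, with 1 array at 12 hr.

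The 11 ES cell transcription factors were among the role groups with the lowest median early changes. At 24 hr of the early series 9 of the 11 were lower, at 12 hr 8 of the 11 were, and the median change at 24 hr was -1.74, against -0.60 over all members and -1.23 for the 5 genes of TGF-beta family signalling. Without the Cy5 correction these medians were -1.22 for the factors and -1.25 for the TGF-beta group, so the order of the groups turned. Krueppel-like factors, which with Esrrb and Tbx3 hold the naive state, moved by different amounts. Klf5 was lower by 1.74 on the log2 scale (adjusted p 4.99e-05) and Klf2 by 0.78 (adjusted p 0.000794). Klf4 read 1.08 and 0.87 at the start, 0.30 and 0.24 after 6 hr, 0.31 and 0.04 after 12 hr and 0.59 and 0.46 after 24 hr, so it passed after 12 hr (-0.80, adjusted p 0.0111) and not after 24 hr (-0.45, adjusted p 0.07). Otx2, a factor of the epiblast and anterior brain, passed at 24 hr (-0.89, adjusted p 0.000218), as did the Ets factor Etv5 (-1.09, adjusted p 8.53e-05), whose change was -0.18 without the correction for Cy5 fading. The cell cycle factor Mybl2 did not (-0.17, adjusted p 1), its 0 hr arrays reading 2.33 and 1.21.

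A broader list of 20 core and naive pluripotency factors puts these in place, and 8 of its genes were members. Gene lists used the brightest probe of each gene, which for Pou5f1, Klf2, Klf4, Klf5, Tdgf1 and Kit was not the member probe on the early arrays. On the early arrays at 24 hr 9 of its 18 measured genes were lower (background 1.34%) and none higher (background 1.23%). Of 15 in the late series, 12 were at least 2-fold lower at 120 hr.

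Among other regulators of transcription and chromatin, 9 of 17 were lower at 24 hr (14 from Cy3 alone), with a median change of -0.67. Tet2 was joined by the Hedgehog effector Gli2 (-1.15, adjusted p 0.0019, and -0.06 without the Cy5 correction) and the H3K4 demethylase Kdm5b (-0.87, adjusted p 0.000237). Jarid2, a partner of Polycomb complex 2, had an adjusted p of 0.00634 but a change of -0.58 that was just under 1.5-fold.

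Members of the TGF-beta family and its partners fell in 4 of 5 cases. Besides Lefty1 these were Tdgf1 (Cripto), the Nodal co-receptor (-1.88, adjusted p 2.02e-06, and -0.93, adjusted p 0.000226, at another probe), Inhbb, the beta B subunit of activin and inhibin (-1.11, adjusted p 8.34e-05), and Ltbp4, a protein that binds latent TGF-beta (-1.23, adjusted p 0.0135). Amhr2, the receptor of anti-Muellerian hormone, did not pass (-0.13, adjusted p 0.988). On a list of 12 genes of Nodal, Lefty and Tdgf1 signalling, 3 of 12 were lower at 24 hr (background 1.34%) and none higher (background 1.23%).

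In cytokine and tyrosine kinase signalling 3 of 8 genes were lower, with a median change of -0.42, and without the Cy5 correction 5 of 8 were, with a median of -0.71. Vegfc read 0.82 and 0.84 at the start and -1.09 and -0.78 after 24 hr (-1.77, adjusted p 1.2e-05). Kit, the receptor of stem cell factor (-0.66, adjusted p 0.00851, and -0.55 at another probe, under 1.5-fold), and Socs2 (-0.87, adjusted p 0.00863) also passed. Socs3, the feedback inhibitor of LIF signalling, had a change of 0.03 (adjusted p 1), and of 0.48 (adjusted p 0.0342) without the correction.

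Germ cell and oocyte genes were lower in 4 of 7 cases at 24 hr and in none at 12 hr. Besides Tcl1 these were Ooep (-0.98, adjusted p 0.00157), Morc1 (-1.002, adjusted p 0.00289) and the RNA helicase D1pas1 (-1.35, adjusted p 4.59e-05), for which close copies on the genome may share signal. Of the 14 genes of adhesion and matrix 6 were lower, including Jam2 and the peptidase Dpp4 (-1.21, adjusted p 3.98e-05). Laminin gamma 1 (Lamc1) had a change of -0.55 (adjusted p 0.00328), under 1.5-fold. Of 17 genes of lipid, sugar and mitochondrial metabolism 7 were lower (13 in the authors' table), with Apoe at -0.76 (adjusted p 0.00356). Among non-coding transcripts, the pluripotency-associated Platr7 (-2.09, adjusted p 2.93e-06), Platr10 (-1.15, adjusted p 0.000632) and Platr14 (-0.73, adjusted p 0.000848) were lower and the snoRNA host Gas5 was not (0.08, adjusted p 1). Of 8 genes for RNA binding, splicing and ribosomal proteins 1 was lower (2 from Cy3 alone).

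**Figure D3:**
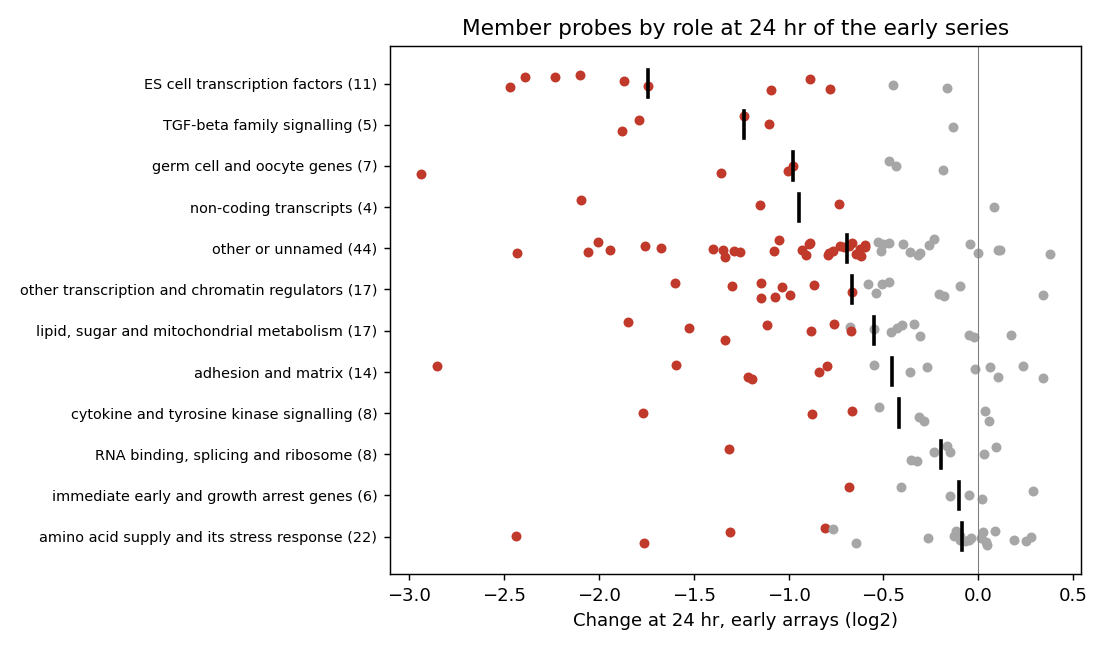
Change at 24 hr on the early arrays (horizontal axis, log2) of the 163 measured members, grouped by role with the number of genes in brackets, red where called lower and grey otherwise, with a black bar at each group's median. ES cell transcription factors have a median of -1.74 and genes of amino acid supply one of -0.08.

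Genes that supply amino acids had far apart values in the 2 series, a difference that was not tested. This group of 22 held enzymes that make serine, asparagine, cysteine and one-carbon units (Phgdh, Psat1, Shmt2, Mthfd2, Asns, Cth), transporters (Slc7a3, Slc1a5, Slc6a15), tRNA synthetases (Gars, Lars, Cars) and stress regulators (Atf5, Trib3, Nupr1, Jdp2, Sesn2, Gdf15). On the late arrays its median change at 24 hr was -1.49, lower than the -1.15 of all members. On the early arrays at 24 hr it was -0.08, and 4 of 22 were called lower, namely Slc7a3, Slc6a15, Tdh and Pck2. That median was -0.01 without the Cy5 correction, -0.08 from Cy3 alone and -0.28 in the authors' table, with 3, 4 and 3 genes lower. The Pck2 call rested on 1 array at 24 hr and its change was 0.07 without the correction.

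Asparagine synthetase, Asns, read 13.41, 13.54 and 13.67 on the late arrays at the start and 12.16, 12.10 and 11.77 after 24 hr (log2 level). On the early arrays it read 1.00 and 1.02 at the start and 0.90 and 1.21 after 24 hr (log2 ratio). The late arrays separated without overlap and the early ones overlapped (0.05, SE 0.17, adjusted p 1). Trib3, a pseudokinase induced by amino acid shortage, read 13.49, 13.35 and 13.67 at the start and 11.05, 11.10 and 10.96 after 24 hr on the late arrays, and 0.78 and 0.73 at the start and 0.49 and 0.83 after 24 hr on the early ones (-0.10, SE 0.18, adjusted p 1). Cth, which makes cysteine, had a late change of -2.47 and an early one of -0.76 (adjusted p 0.0763). Without the Cy5 correction the early changes were 0.51 for Asns (adjusted p 0.0667), 0.54 for Trib3 (adjusted p 0.156) and -0.14 for Cth (adjusted p 0.73), none of which passed, while that of the tRNA synthetase gene Gars was 1.59 (adjusted p 0.00634) against 0.03 with it. Slc7a3 and Slc6a15, by contrast, were lower in both series, Slc6a15 by 0.94 in the late and 1.31 in the early series (adjusted p 3.26e-05). Tdh, the threonine dehydrogenase of ES cells, was lower by 0.99 in the late series and 1.76 in the early one (adjusted p 3.22e-06).

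The starting level of these probes also stood apart between the series. The Cy3 signal of the Asns probe averaged 6658 on the late arrays at the start and 1779 after 24 hr, and 2310 and 2397 on the early arrays at the same times. For Trib3 it was 5669 and 1121 on the late arrays, and 862.9 and 895 on the early ones. Signals on the early arrays at 0 hr were thus nearer the late 24 hr signals than the late 0 hr ones for both genes. Over the 22 genes the median log2 difference in Cy3 signal, early 0 hr minus late 0 hr, was -1.35 and 20 of 22 were below 0. As a log2 ratio to the common reference this median was -1.13 with 21 of 22 below 0, against 0.10 and 39.5% below 0 over 19177 probes of identical sequence. In Cy3 signal over all 163 members it was -0.39 and for the 11 ES cell transcription factors -0.08. These signals come from 2 array designs and were not normalized together, with array medians of 596 to 776 for the late and 595 to 672 for the early arrays. Since the late 0 hr arrays chose the members, a lower early value is favoured by the rule, so these are descriptions without a test.

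Immediate early and growth arrest genes also started lower on the early arrays, with a median Cy3 difference of -0.91 and 5 of 6 below 0. Egr1, a zinc-finger factor induced by growth factors and serum, read 12.86, 12.71 and 13.15 on the late arrays at the start and 9.06, 8.69 and 9.08 after 24 hr. On the early arrays it read -6.26 and -6.11 at the start and -6.51 and -6.16 after 24 hr (log2 ratio), with overlap (-0.15, adjusted p 0.921). Its Cy3 signal at the start was 3647 in the late and 585.5 in the early series, and 555.8 and 552.8 after 24 hr. The early 0 hr signal was thus close in size to the late 24 hr signal, but the floors differed. The 95th percentile of the negative controls was 513.6 to 571.4 on the late 24 hr arrays and 405.1 to 407.6 on the early 0 hr arrays. The late 24 hr signal was therefore at the floor and the early 0 hr signal above it. In this group of 6 only Ier2 was lower at 24 hr (-0.68, adjusted p 0.00115), with 0 lower from Cy3 alone and 2 without the Cy5 correction.

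Across the 163 members the early and late changes at 24 hr had a Pearson r of 0.40 and a Spearman rho of 0.25. This describes genes, which are not independent replicates, and the late values were used by the rule. The most positive early changes at 24 hr were those of Agtrap (0.38, adjusted p 0.0609), Adgrd1 (0.34, adjusted p 0.0787), Smyd3 (0.34, adjusted p 0.283), Gadd45a (0.29, adjusted p 0.21) and Jdp2 (0.28, adjusted p 0.38), none of which passed. Without the Cy5 correction Smyd3 had a change of 1.09 (adjusted p 0.0188) and Jdp2 one of 0.67 (adjusted p 0.008).

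**Figure D4:**
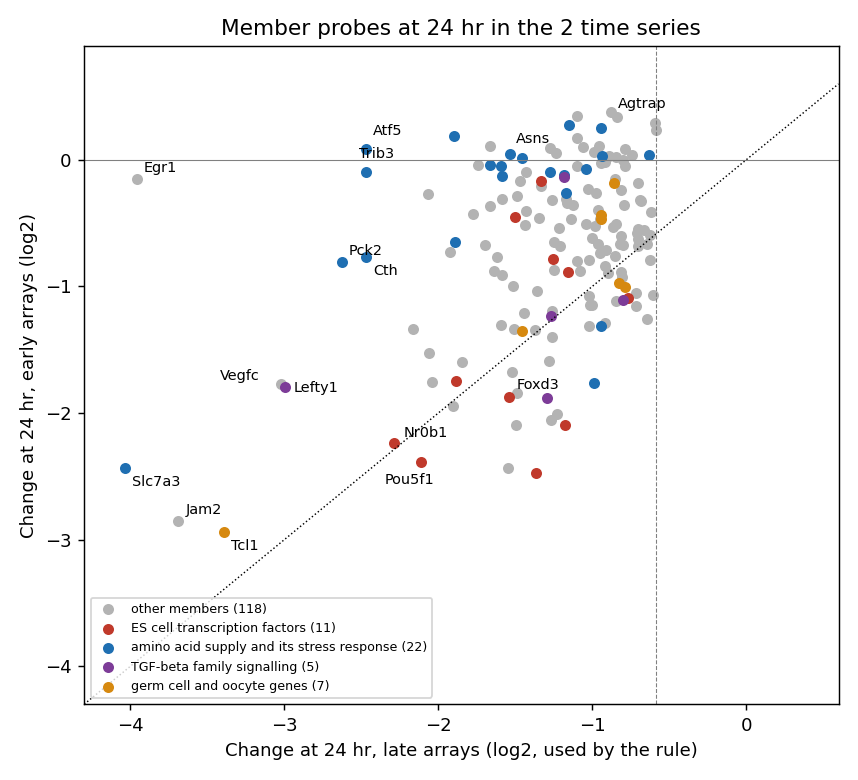
Change at 24 hr on the late arrays, which the rule used (horizontal axis, log2), against that on the early arrays (vertical axis, log2) for 163 members, coloured by role, with a dotted line of equal change and a dashed line at the 24 hr threshold. Jam2, Tcl1, Slc7a3 and Pou5f1 are low on both axes, while Egr1 is at -3.96 in the late and -0.15 in the early series.

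Cy5 fading moved with time on the early arrays and is given here for that reason. An index of 100 probes that tracks it had means (log2) of 0.82 at the start, 0.35 after 3 hr, -0.37 after 6 hr, -0.03 after 12 hr and -0.77 after 24 hr, and a per-probe correction for it was part of the fit. In the channels after normalization within and between arrays, but before this correction, the median member change at 24 hr was -0.66 in Cy3, the cell RNA. In Cy5, the reference, it was -0.07, and a loss of Cy5 over a whole array would not show in these normalized values.

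The medium experiment asked whether other ways out of self-renewal touched the same genes. Its 12 arrays have 1 per line and medium. Some of the 4 lines share a parent or a strain, so p-values over them may be too small, which was not tested. Nanog/EF1#6 has the strain label of ES 129.3, but the study's methods name the line MC1 as its parent, so ES 129.3 may not be its own parental line. Without LIF 35 of 163 members were lower than with LIF (21.5%, background 0.5%) and 3 were higher (1.84%, background 0.549%). With RA 58 were lower (35.6%, background 1.21%) and 4 higher (2.45%, background 4.76%). The median member change was -0.28 without LIF and -0.47 on RA, against 0.01 and 0.00 over all probes. By line the medians without LIF were -0.42 in MG1.19, -0.11 in its episomal Nanog clone, -0.23 in ES 129.3 and -0.34 in Nanog/EF1#6. The number lower without LIF depended on single lines, being 2 without line MG1.19, 13 without the episomal clone and 15 without Nanog/EF1#6. On RA it was 32 without MG1.19. Both comparisons use the same LIF arrays, so the overlap of their calls is not given and RA was set directly against LIF-.

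Markers of other cell types also differed on RA. The mean log2 ratio of 7 primitive endoderm markers was -0.94 to -0.61 over the 4 arrays with LIF, -0.87 to -0.36 without LIF and 0.06 to 0.99 on RA, and 4 of the 7 were called higher on RA. For 11 trophoblast markers it was -0.94 to -0.17, -0.47 to -0.07 and 0.05 to 0.89, with 6 of 11 higher on RA and 1 of 11 without LIF. Fibroblast feeder markers were higher on RA in 4 of 6 cases, with overlapping ranges of -3.06 to -1.90 with LIF and -2.57 to -1.11 on RA. Of 7 ES cell markers, 2 of them members, 5 were lower on RA and none without LIF, and no mesoderm or neural marker was called in either medium. The part of these cell types in the members' changes was not tested.

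In that direct comparison 29 members were lower on RA than without LIF (17.8%, background 1.68%) and 20 were higher (12.3%, background 4.18%).

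Socs3 and Klf4 were at one end of this comparison. For Socs3 the log2 ratio with LIF, without LIF and on RA was 1.02, -1.82 and 0.69 in MG1.19, 0.66, -2.001 and 0.78 in the episomal Nanog clone, 0.41, -1.63 and 0.74 in ES 129.3, and 0.71, -2.24 and 0.72 in Nanog/EF1#6. The 4 LIF- arrays were far below the other 8, which overlapped each other. The change was -2.62 without LIF (SE 0.14, adjusted p 0.000553) and 0.04 on RA (adjusted p 0.911), with RA above LIF- by 2.66 (adjusted p 6.78e-05). Klf4, a target of Stat3, read 2.01, -1.30 and 0.66, then 2.24, -0.55 and 0.98, then 0.95, -1.23 and 0.15, then 2.44, -0.26 and 2.09 in the same order. It was lowest without LIF and between on RA in every line (-2.74, adjusted p 0.00178, and -0.94, adjusted p 0.0141). Spp1 (osteopontin), a secreted matrix protein, was lower without LIF (-1.58, adjusted p 0.00349) and 2.004 higher on RA than LIF- (adjusted p 0.000118). Kit was lower without LIF (-0.71, adjusted p 0.0286) and had a change of 0.20 on RA (adjusted p 0.32).

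Slc7a3 and Slc6a15, a pair of amino acid transporters, and several ES cell factors were at the other end, while the transporter Slc1a5 was higher on RA than LIF- (0.96, adjusted p 0.00564). Slc7a3 read 2.87, 3.18 and 0.19 in MG1.19, 2.36, 3.35 and 0.08 in the episomal clone, 3.21, 3.31 and 0.23 in ES 129.3, and 3.30, 3.51 and 0.59 in Nanog/EF1#6 with LIF, without LIF and on RA. The 4 RA arrays were below all 8 others, by 2.66 against LIF (SE 0.13, adjusted p 5.12e-05) and by 3.07 against LIF- (adjusted p 2.87e-05). Slc6a15, which carries neutral amino acids, was 2.82 lower on RA than LIF- (adjusted p 0.00264). Etv5 (-1.91, adjusted p 0.000467) and Platr10 (-2.12, adjusted p 0.000383) were lower on RA and had LIF- changes of -0.24 and -0.04 that did not pass. Foxd3 was lower on RA (-1.24, adjusted p 0.00565), as was Tdgf1 (-1.21, adjusted p 0.00273), and neither passed without LIF (adjusted p 0.902 and 0.882). Tdh was lower on RA by 2.05 on the log2 scale (adjusted p 0.000551), and Socs2 by 1.54 (adjusted p 5.61e-05).

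Otx2 moved in opposite directions. It read 1.76, 2.60 and 0.02 in MG1.19, 0.91, 2.90 and 0.13 in the episomal clone, 2.15, 3.13 and 0.15 in ES 129.3, and 1.21, 3.11 and 0.17 in Nanog/EF1#6 with LIF, without LIF and on RA. All LIF- arrays were above all LIF arrays and all RA arrays below them, with changes of 1.43 (adjusted p 0.0205) and -1.39 (adjusted p 0.00327). Mid1ip1, a regulator of fatty acid synthesis (1.01, adjusted p 0.0299), and the splicing factor Srsf6 (0.59, adjusted p 0.0393) were the other two that were higher without LIF. Those higher on RA than with LIF were Cpe, a prohormone-processing carboxypeptidase (1.04, adjusted p 0.0453), the guidance receptor Robo1 (1.00, adjusted p 0.0215), the glutamine transporter Slc1a5 (0.80, adjusted p 0.0124) and the unnamed transcript BC056371.1 (0.93, adjusted p 0.00363).

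Some genes were low in both media. Nr0b1 read 4.83, 2.16 and 1.66 in MG1.19, 4.86, 2.95 and 1.68 in the episomal clone, 4.20, 1.53 and 1.53 in ES 129.3, and 5.81, 4.09 and 3.87 in Nanog/EF1#6 with LIF, without LIF and on RA. Within each line both media were below LIF, although the clone Nanog/EF1#6 stayed highest in every medium, with changes of -2.24 (adjusted p 0.00788) and -2.74 (adjusted p 0.000309). Hmces was lower by 1.57 and 1.63 on the log2 scale (adjusted p 0.000553 and 5.12e-05), Tcl1 by 1.65 and 2.06 (adjusted p 0.00428 and 0.00018), Morc1 by 1.66 and 2.26 (adjusted p 0.0125 and 0.000371) and Tet2 by 1.22 and 0.86 (adjusted p 0.00912 and 0.00431). For these genes RA against LIF- did not pass, the adjusted p being 0.223 for Nr0b1 and 0.72 for Hmces. Jam2 was lower without LIF (-1.89, adjusted p 0.0247) and its RA change of -0.90 did not pass (adjusted p 0.0806).

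Pou5f1 itself read 2.14, 2.87 and 0.83 in MG1.19, 2.81, 2.13 and 0.65 in the episomal clone, 2.16, 2.79 and 0.49 in ES 129.3, and 2.77, 2.27 and 2.42 in Nanog/EF1#6 with LIF, without LIF and on RA. The RA array was well below the LIF array in all lines but Nanog/EF1#6 (-1.38, SE 0.38, adjusted p 0.0429), and the change without LIF did not pass (0.05, adjusted p 0.975). That mean joins opposite directions, since Pou5f1 was higher without LIF in MG1.19 and ES 129.3 and lower in both Nanog clones. Of the 11 ES cell transcription factors, 3 were lower and 1 higher without LIF and 9 were lower on RA. Of the 22 genes of amino acid supply, 1 was lower without LIF (Trib3, -0.87, adjusted p 0.0434), and 6 were lower and 1 higher on RA. Asns changed by -0.21 and 0.01 and passed in neither (adjusted p 0.711 and 0.978). No probe on the arrays, members included, had an effect of medium that differed between Nanog clones and parental lines at an adjusted p of 0.05 (limma). This does not show that the effects were equal.

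**Figure D5:**
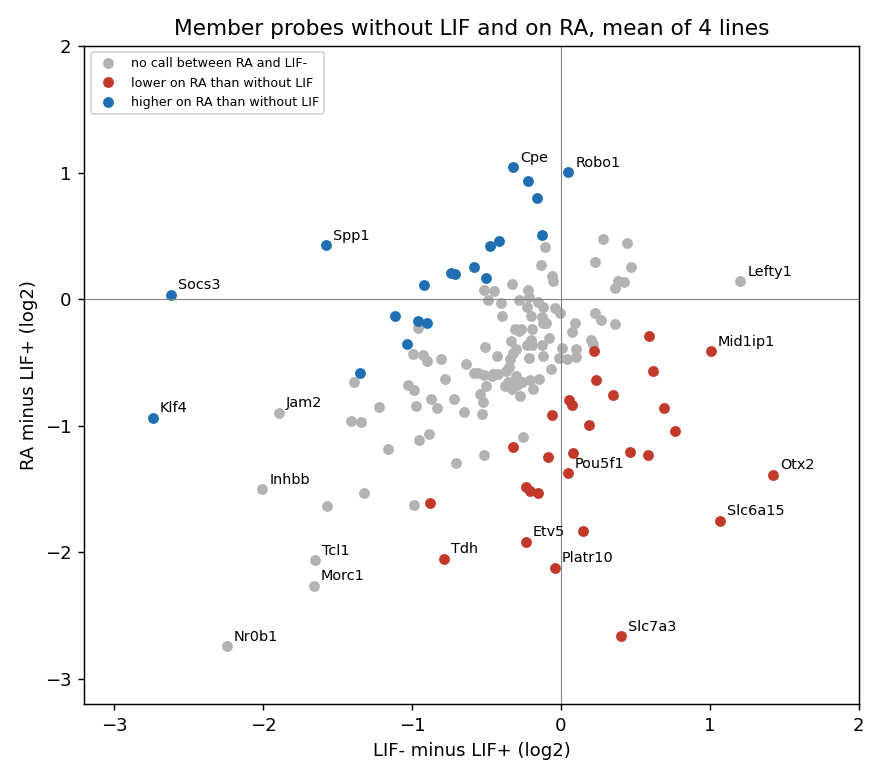
Change without LIF (horizontal axis) against change on RA (vertical axis), both log2 relative to medium with LIF and averaged over 4 lines, for 163 members, coloured by the direct comparison of RA with LIF-. Klf4 and Socs3 lie far left, Slc7a3 low and to the right of 0, and Otx2 at 1.43 and -1.39. The shared LIF arrays enter both axes.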

How the data were processed

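The authors deposited Agilent Feature Extraction files with spot intensity for Cy3 and Cy5, and tables of normalized values on the log10 scale per the file headers. A deposited column of the medium table with a missing-value code was read as a score, from the authors, and entered only an alternative. Arrays of 3 designs were scanned, and the deposited late table, after their correction for ozone fading of Cy5, was used as given and turned to log2. For the early (10 arrays) and medium (12 arrays) sets, intensity was background-corrected (normexp, offset 50), loess-normalized within arrays and Aquantile-normalized between them. It was then corrected per probe for Cy5 fading. The index for this was the mean of the 100 probes with the highest variance of normalized Cy5, among those with a mean log10 value above 2.5. Fits used limma 3.58.1 in R 4.3.3, on time for the early arrays and on line plus medium for the others, with Benjamini-Hochberg adjustment over all probes. Calls needed an adjusted p of 0.05 and 1.5-fold. The array number (2 or 3 per time, 1 per line and medium) limits precision.

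Across the late arrays the median Cy3 intensity was 596 to 776, the background 365 to 390 and the replicate correlation 0.9919 to 0.9987. In the early set the correlation was 0.962 to 0.984. Members were matched between designs by identical probe sequence and named by accession (117) or the study table (46), leaving 2 unnamed. The members and gene lists were chosen with earlier results of these data known, and role groups and motifs after the members were seen. Genes named in the text were the 10 lowest late genes, those nearest the thresholds, up to 10 called lower and 5 opposite per comparison with all arrays or lines alike, members of the gene lists and the 5 closest to the median course. A member that this rule names is not reported here. Others were added as examples of a role after their values were seen. Alternatives were no Cy5 correction, Cy3 alone, Feature Extraction signals, the authors' table, no dim probes, the methods' error model, a replicate block and leaving out arrays or lines. On simulated data with 200 changed probes the early 24 hr fit was tested before use. A protocol label on the late arrays describes another construct, and the titles were used instead.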

Additional observations from a re-analysis of the deposited data

Results flagged for a closer look

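Among 45 groups of 4 lines, a single line stood far from the others in 3 cases, and chance marks about 1 group in 20. For Inhbb the change without LIF was -0.62 in ES 129.3, much smaller than in the other lines, and its ratio with LIF was 0.03 in that line against 1.56 to 1.94 elsewhere. For Morc1 the change on RA was -1.81 in Nanog/EF1#6, and for Hmces it was -1.31 in ES 129.3, both smaller than in the other lines.

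Among the members with the most positive early changes, 5 had both early arrays at 24 hr above both at 0 hr. The share of all probes with both arrays above is not given here, and these 5 were picked by the size of their early change. In these 5 the late arrays at 24 hr were below those at 0 hr, a direction that the rule sets for the mean of every member. Their early changes were 0.38 for Agtrap, 0.34 for Adgrd1, 0.34 for Smyd3, 0.29 for Gadd45a and 0.28 for Jdp2. The difference between the series was not tested.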

How the results depend on the processing

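The number of genes meeting the rule was 100 with a 2-fold threshold at 24 hr, and leaving out 1 array at a time it was 131 to 183. With scanner values 214 probes met the rule, 143 of them among the 165. The early count at 6 hr was 6 without the Cy5 correction, 6 from Cy3 alone, 0 from Feature Extraction signals, 0 with the methods' error model and 1 with a replicate block, and with single arrays dropped it was 1 to 3 (0 to 1 at 3 hr, 15 to 29 at 12 hr, 72 to 84 at 24 hr). The block gave 0, 1, 28 and 81 lower genes at 3, 6, 12 and 24 hr. Replicate numbers did not pair the early arrays (correlations of -0.17 to 0.29 over 10 pairs of times, 3 of them over 0.1). With the error model the counts at 12 and 24 hr were 0, as they were over all probes. The median change was -0.0695 at 6 hr without the Cy5 correction, and in the authors' table -0.16 at 6 hr, -0.30 at 12 hr and -0.84 at 24 hr. At 24 hr it was -0.65 without the correction, -0.66 from Cy3 alone and -0.65 from Feature Extraction signals. Leaving out 1 array gave -0.0535 to 0.0084 at 6 hr and -0.68 to -0.55 at 24 hr. Members lower without LIF numbered 5 in the 2 parental lines alone and 0 in the 2 Nanog clones alone, with 2 to 29 leaving out 1 line. In the clones alone the count on RA was 2 (32 to 55 leaving out 1 line), and RA against LIF- gave 1 lower (20 to 31) and 1 higher (15 to 18). For 65 calls of genes named by size, 716 of 851 alternative values stayed past the threshold in the same direction, 135 kept the direction but missed it, and 0 reversed. Outside those, without the Cy5 correction the early 24 hr calls of Etv5 (-0.18) and Gli2 (-0.06) were lost and Pck2 turned to 0.07. The causes were not tested. A scan date block was not run, since 0 files hold a date. Low signal limits the late values of 21 genes, and 2 arrays per time limit the early test.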

Other observations

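Other gene lists stand beside a share of members of 1.01% over all late probes. Over all probes 1.34% were called lower and 1.23% higher at early 24 hr, 0.5% lower without LIF and 1.21% lower on RA. On the list of 22 genes of chromatin and DNA methylation, 2 were members, 7 of 20 were lower at 24 hr of the early series, 3 of 20 without LIF and 11 of 20 on RA. On the cell cycle list of 15 genes, 1 was a member and 1 of 15 was lower at 24 hr. The list of 9 BMP and Id genes had no member, and 2 of 9 were lower and 3 of 9 higher at 24 hr.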
